A study of Mus musculus with 6 samples.

Results

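*Lif*, which encodes leukemia inhibitory factor, and 9 other genes of the gp130 cytokine family and its main signalling route were followed across the RNA sequencing libraries of mouse pulmonary artery smooth muscle cells (mPASMCs). The 10 genes were taken from the 55487 genes of the deposited count table by symbol. They are the ligand genes *Lif*, *Il6*, *Il11* and *Clcf1*, the receptor genes *Lifr*, *Il6st*, *Osmr* and *Il6ra*, the transcription factor gene *Stat3* and the feedback inhibitor gene *Socs3*. They were chosen with the comparison between the 2 siRNA groups already known, and *Lif* for its difference in it, so the differences of these 10 genes between the groups are a description. Where a gene is said to be past the threshold of the fit over all genes, that counts it beside the other genes and is no independent test of it. The cells were primary mPASMCs in culture. One group of 3 libraries (si-Snhg18) came from cells transfected with a small interfering RNA against *Snhg18*, a small nucleolar RNA host gene transcribed into a long noncoding RNA, and the other 3 (si-NC) from cells given a negative control siRNA. The study asks what *Snhg18* does in hypoxic pulmonary hypertension. The oxygen level of the sequenced cells, the time after transfection and the number of cultures are not given in the sources used here, and a single siRNA label stands for the knockdown.

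Cytokines of this family each bind a receptor complex that contains gp130, the shared signal-transducing subunit encoded by *Il6st*. Leukemia inhibitory factor uses gp130 with the LIF receptor, IL6 and IL11 first bind their own alpha subunits, and *Clcf1* encodes cardiotrophin-like cytokine factor 1, another ligand of the family. Ligand binding activates Janus kinases, which phosphorylate STAT3, and STAT3 in turn switches on *Socs3*, whose product blocks gp130 signalling. In arteries the family is known for its part in inflammation and in smooth muscle growth.

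The 250 bases before the annotated start were searched for 2 short motifs, the STAT element TTCNNNGAA and the AP-1 element TGANTCA, where N is any base. Both read the same on the complementary strand, so 1 search covers both strands, and they do not overlap each other in these windows. The sequences are from RefSeq on GRCm38.p6, where 9 of the 10 genes matched with 11 windows, and *Clcf1* was not matched. The AP-1 letters were in 3 of the 11 windows, 1 each of *Lif*, *Il6* and *Il11*, and in 6.75% of 32851 mouse windows of the same length. The other *Il11* window, chr7:4782858-4783107, held neither motif. The *Il11* window with the match and the *Socs3* window lie within the spans of these genes given further below. The end of the *Lif* window overlaps the span of *Lif*. The STAT letters were in 1 of the 11 windows, that of *Socs3*, and in 7.02% of all windows. The match began 228 bases before the start in *Lif*, 249 in *Il6*, 98 in *Il11* and 154 in *Socs3*. The 4 windows with a match are printed 5′ to 3′ on the strand of the gene, with the matched letters in capitals, because 3 of them belong to ligand genes whose levels are described next and the other to the feedback gene of the pathway.
*Lif*, chr11:4257318-4257567, plus strand: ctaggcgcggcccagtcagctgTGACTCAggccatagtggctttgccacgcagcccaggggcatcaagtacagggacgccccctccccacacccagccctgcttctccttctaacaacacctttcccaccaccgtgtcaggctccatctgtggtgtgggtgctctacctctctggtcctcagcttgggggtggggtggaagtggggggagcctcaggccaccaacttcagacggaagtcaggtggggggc
*Il6*, chr5:30012864-30013113, plus strand: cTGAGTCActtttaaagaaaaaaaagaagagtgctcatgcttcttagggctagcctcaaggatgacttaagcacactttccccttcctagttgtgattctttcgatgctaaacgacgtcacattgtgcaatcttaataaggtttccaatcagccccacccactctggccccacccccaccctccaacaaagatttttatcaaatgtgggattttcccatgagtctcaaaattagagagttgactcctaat
*Il11*, chr7:4778142-4778391, minus strand: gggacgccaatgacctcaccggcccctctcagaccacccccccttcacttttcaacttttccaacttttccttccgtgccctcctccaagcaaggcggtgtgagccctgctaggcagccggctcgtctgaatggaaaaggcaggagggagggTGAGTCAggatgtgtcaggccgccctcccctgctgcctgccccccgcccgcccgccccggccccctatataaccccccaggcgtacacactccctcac
*Socs3*, chr11:117969367-117969616, minus strand: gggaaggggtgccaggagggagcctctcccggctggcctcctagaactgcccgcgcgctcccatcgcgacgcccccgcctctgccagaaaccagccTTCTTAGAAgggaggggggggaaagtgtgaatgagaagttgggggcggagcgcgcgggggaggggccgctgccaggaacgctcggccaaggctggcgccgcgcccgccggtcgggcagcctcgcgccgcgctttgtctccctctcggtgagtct
A match is a string of letters in the window. Whether a factor binds there was not measured.

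*Lif* (chr11:4257557-4272514, plus strand, GRCm38) had its 3 lowest values in the 3 si-Snhg18 libraries. Levels are read counts scaled to library size (CPM, counts per 1000000 reads) after adjustment by the trimmed mean of M values (TMM). *Lif* was at 58.0, 56.6 and 57.6 CPM in si-NC libraries 1 to 3, and at 26.3, 35.4 and 32.0 CPM in si-Snhg18 libraries 1 to 3. The si-NC values lay close together, the si-Snhg18 values were more spread, and the groups did not overlap. The means were 57.4 ± 0.728 and 31.2 ± 4.60 CPM (SD, n = 3 each), so 54.4% of the control level remained. The log2 fold change was -0.88 with a standard error (SE) of 0.12. Within the libraries that carry the same repeat number it was -1.14, -0.68 and -0.85 for numbers 1 to 3, negative in each. In bulk RNA, fewer cells that express a gene and less RNA per cell cannot be told apart.

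*Lif* was the 1 of the 10 genes with an adjusted p under 0.05 in the edgeR fit over 14531 genes. In that fit 3.71% of all genes tested were lower at that threshold, 3.65% were higher and 7.36% differed in either direction, and nothing is read from the count of members, since the choice of genes used this contrast. Leaving out 1 library at a time gave log2 fold changes of *Lif* between -0.98 and -0.77, and it was past the threshold in 2 of the 6 fits. It was not past it without si-NC 1, si-NC 2, si-NC 3 or si-Snhg18 3, where the fits called between 0 and 158 of all genes.

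**Figure D1:**
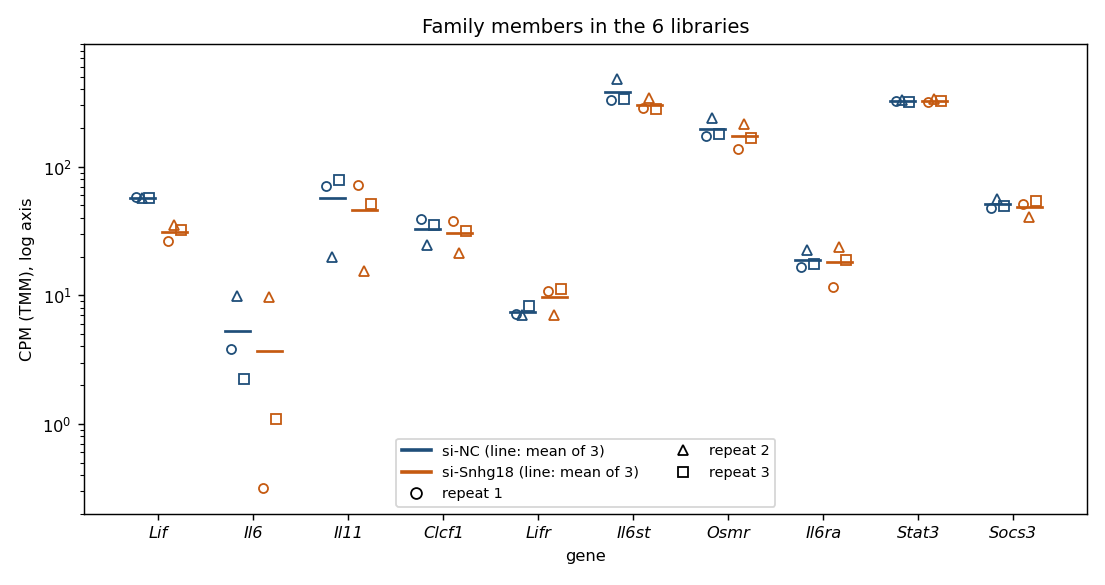
CPM (TMM-scaled, log axis) of the 10 genes in the 6 libraries, with si-NC in blue, si-Snhg18 in orange, lines for the mean of 3 libraries and a marker shape for each repeat number. *Lif* is the gene whose groups do not overlap, while the libraries numbered 2 (triangles) sit apart from the others in *Il6* and *Il11*.

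The other ligand genes varied more between repeat numbers than between groups. *Il6* (chr5:30013114-30019981, plus strand), the gene of the founding ligand of the family, was at 3.84, 9.84 and 2.25 CPM in si-NC libraries and at 0.317, 9.69 and 1.10 CPM in si-Snhg18 libraries. It was low throughout, with between 8 and 252 reads a library. The 2 libraries numbered 2 were highest, si-Snhg18 1 was lowest and the groups overlapped. Its log2 fold change was -0.51 (SE 1.13) and -1.10 (SE 0.54) with the repeat number as a block. Within numbers it was -3.60, -0.02 and -1.03. The value turned to 0.29 without si-NC 2 and to 0.04 without si-Snhg18 1, and was -2.98 without si-Snhg18 2. In that last fit *Il6* was past the threshold, as were 3282 of 14832 genes.

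*Il11* (chr7:4772373-4782859, minus strand), whose product signals through its own alpha receptor and gp130, was at 70.8, 19.7 and 79.5 CPM in si-NC libraries and at 71.5, 15.5 and 50.9 CPM in si-Snhg18 libraries. Here the libraries numbered 2 were the lowest of each group, the reverse of *Il6*, and the groups overlapped. The log2 fold change was -0.30 (SE 0.66). *Clcf1* (chr19:4214238-4223490, plus strand) was at 39.0, 24.5 and 35.4 CPM in si-NC libraries and at 38.1, 21.5 and 31.5 CPM in si-Snhg18 libraries, again lowest in number 2 of each group. Its groups overlapped and its log2 fold change was -0.12 (SE 0.25).

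Among the receptor genes no pair of groups was separate. *Il6st* (chr13:112464070-112510086, plus strand), which encodes gp130, was at 332, 480 and 336 CPM in si-NC libraries and at 284, 340 and 282 CPM in si-Snhg18 libraries. The si-Snhg18 library was the lower one in each repeat number, but si-Snhg18 2 lay above si-NC 1 and si-NC 3. The log2 fold change was -0.34 (SE 0.16) and was -0.32 (SE 0.07) with the repeat number as a block, where *Il6st* joined *Lif* past the threshold. It was -0.15 without si-NC 2. With the block, 2 of the 10 genes and 27.2% of all genes tested were past it. *Osmr* (chr15:6813577-6874969, minus strand), the gene of the oncostatin M receptor, was at 172, 239 and 180 CPM in si-NC libraries and at 138, 214 and 168 CPM in si-Snhg18 libraries. It too was lower within each number, with overlapping groups and a log2 fold change of -0.18 (SE 0.19), which ranged from -0.02 without si-NC 2 to -0.37 without si-Snhg18 2.

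*Lifr* (chr15:7090614-7197489, plus strand), the receptor gene for leukemia inhibitory factor, was at 7.21, 6.98 and 8.22 CPM in si-NC libraries and at 10.8, 7.04 and 11.2 CPM in si-Snhg18 libraries. Libraries si-Snhg18 1 and si-Snhg18 3 lay above all controls, and si-Snhg18 2 lay among them. The log2 fold change was 0.37 (SE 0.21), and ranged from 0.25 without si-Snhg18 3 to 0.55 without si-Snhg18 2. In that last fit *Lifr* was past the threshold, as were 3282 of 14832 genes. *Il6ra* (chr3:89864059-89913196, minus strand), the alpha subunit gene for IL6, was at 16.5, 22.6 and 17.6 CPM in si-NC libraries and at 11.6, 23.8 and 18.9 CPM in si-Snhg18 libraries. Its groups overlapped, its lowest value was in si-Snhg18 1, and its log2 fold change was -0.06 (SE 0.27).

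*Stat3* and *Socs3*, downstream of the receptors, had nearly equal mean levels in the 2 groups. *Stat3* (chr11:100885098-100939540, minus strand) was at 326, 329 and 320 CPM in si-NC libraries and at 316, 337 and 327 CPM in si-Snhg18 libraries, a log2 fold change of 0.01 (SE 0.06). *Socs3* (chr11:117966079-117970047, minus strand), whose window holds the STAT letters printed above, was at 47.7, 55.9 and 49.9 CPM in si-NC libraries and at 51.4, 40.9 and 54.4 CPM in si-Snhg18 libraries. Its lowest value was in si-Snhg18 2, the groups overlapped and the log2 fold change was -0.07 (SE 0.13). These are transcript levels, and neither STAT3 protein nor its phosphorylation was measured here. Of the 10 genes, 8 had a negative and 2 a positive log2 fold change, with a median of -0.15 beside a median of 0.01 over all genes tested. That median was -0.01 without si-NC 2 and -0.07 without si-Snhg18 1. The groups were separate, with si-Snhg18 lower, in 1 of the 10 genes and in 15.5% of all genes tested, and separate in either direction in 30.9% of them.

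**Figure D2:**
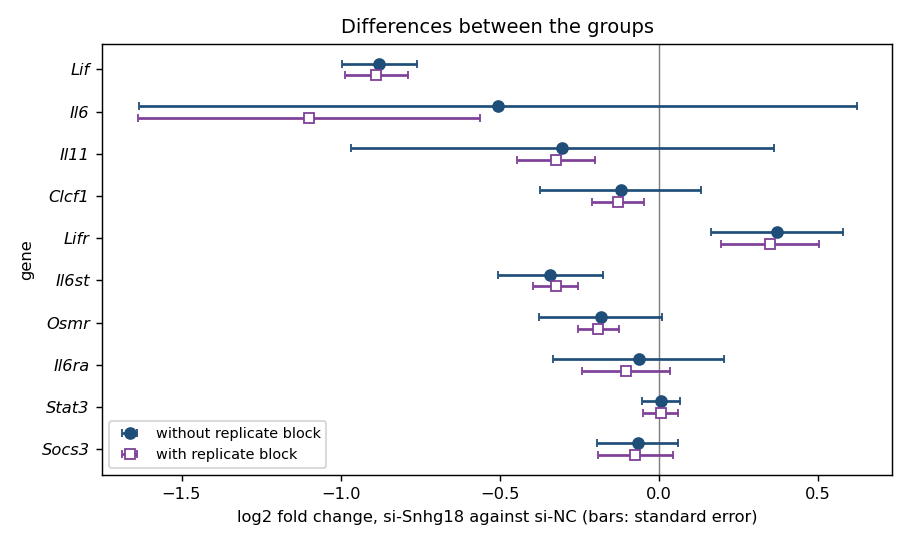
Log2 fold change of the 10 genes, si-Snhg18 against si-NC, from the edgeR fit without (filled circles) and with (open squares) the repeat number as a block, with bars for the standard error. *Lif* is at -0.88 and -0.89, and the bars of *Il6* and *Il11* shorten with the block.

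The libraries numbered 2 differed from those numbered 1 and 3 in many of these genes, in both siRNA groups. This was seen in the values first, so for these genes the p-values of the number are a description. The repeat number was then tested for every gene in a fit with group and repeat number (edgeR quasi-likelihood F test of the number, with Benjamini-Hochberg adjustment over all genes). The test covers any difference among the numbers. Its adjusted p is not one for number 2 against the others, whose fold is printed beside it. Of all genes tested, 13.8% passed, and of the 10 genes 5 did. *Il11* passed with an adjusted p of 0.00328 and was 3.87-fold lower in number 2 than in the mean of the others. *Clcf1* passed at 0.0142 and was 1.56-fold lower there. Both are ligand genes.

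*Il6* moved the other way, 5.21-fold higher in number 2 (adjusted p = 0.0364). The receptor genes *Osmr* (1.37-fold higher, adjusted p = 0.0152) and *Il6st* (1.33-fold higher, adjusted p = 0.0331) passed too. *Il6ra* was 1.43-fold higher in number 2 with an adjusted p of 0.0602. *Lifr* had an adjusted p of 0.263, *Lif* of 0.525, *Stat3* of 0.819 and *Socs3* of 0.842. The values in number 2 thus separated the ligand genes *Il11* and *Clcf1* from *Il6* by direction. *Lif* did not pass the test of the number, but its choice for a group difference favours a gene with little spread within groups. The labels give the number only as a repeat and do not say what libraries with the same number share.

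Of the squared deviations of log2 CPM over the 6 libraries, the siRNA group held 92.5% for *Lif* and the repeat number 3.16%. For *Il11* these shares were 3.00% and 95.0%, and for *Clcf1* 4.10% and 94.8%. The number held a larger share than the group in every one of the 10 genes but *Lif*. *Lif* was chosen for its group difference in these same libraries. Its large group share and small number share follow in part from that choice and are no separate result. The number has more levels than the group, so on average its share is larger even where neither has an effect. The 2 shares are therefore not on an equal footing. It held 82.5% in *Osmr*, 80.4% in *Il6ra*, 63.8% in *Il6*, 59.3% in *Stat3*, 53.2% in *Il6st*, 45.1% in *Lifr* and 11.9% in *Socs3*. Over all genes tested the median shares were 31.6% for the group and 43.2% for the number. The count of members past the number test depended on single libraries. It was 1, *Il11*, without si-NC 3, without si-Snhg18 2 or without si-Snhg18 3, and 8 without si-NC 1. DESeq2 and limma-voom also gave 5 genes, with *Il6ra* in place of *Il6*.

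**Figure D3:**
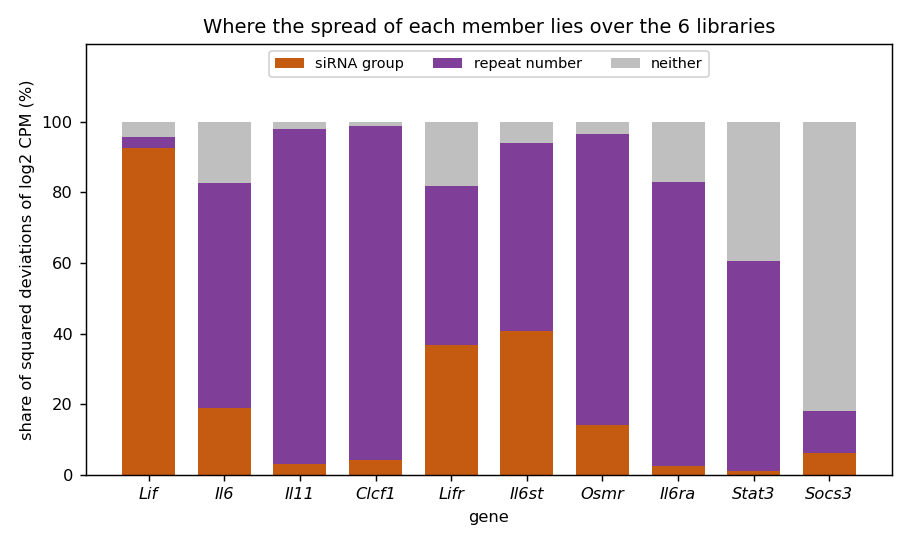
Share of the squared deviations of log2 CPM over the 6 libraries (percent, bars from 0 to 100) held by the siRNA group, by the repeat number and by neither, for each of the 10 genes. The group holds 92.5% in *Lif*, which was chosen for its group difference, and the number 95.0% in *Il11* and 94.8% in *Clcf1*.

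Summed levels of some marker lists differed between the same libraries, though few single markers passed the test and they did not all go one way. The summed CPM of 6 epithelial markers was 7.43, 22.7 and 7.24 in si-NC libraries and 1.19, 7.42 and 2.36 in si-Snhg18 libraries, highest in number 2 of each group. Most of this sum was *Krt18*, a keratin gene, at 7.25, 22.1 and 6.95 CPM in si-NC libraries and at 0.989, 7.27 and 2.25 CPM in si-Snhg18 libraries. *Krt18* was the 1 epithelial marker with enough reads to be tested (log2 fold change -1.78, SE 0.79, adjusted p = 0.226 in edgeR, and 0.00216 with the block), and *Sftpc* and *Scgb1a1* had no read. The summed CPM of 8 leukocyte markers was 157, 113 and 156 in si-NC libraries and 112, 71.9 and 104 in si-Snhg18 libraries, lower in si-Snhg18 within each number.

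Within the leukocyte list the markers differed in direction. Most of the sum was *Cd53*, which was lower in si-Snhg18 (log2 fold change -1.10, SE 0.10, adjusted p = 0.00727, edgeR). *Cd14* had a log2 fold change of 0.59 (SE 0.54, adjusted p = 0.539), and was higher with the block (adjusted p = 0.00369). *Cd68* had one of 0.35 (SE 0.27, adjusted p = 0.466), and *Adgre1* and *Cd3e* had no read.

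The 8 smooth muscle markers summed to between 1740 and 1881 CPM in si-NC libraries and between 1201 and 1826 CPM in si-Snhg18 libraries. Of them *Tagln* passed without the block (log2 fold change -0.51, SE 0.11, adjusted p = 0.0427), and 4 passed with it, all lower: *Tagln*, *Cnn1* (adjusted p = 0.0113), *Des* (adjusted p = 0.00154) and *Myh11* (adjusted p = 0.0207). Of all genes tested, 13.6% were lower past the threshold with the block. The others did not pass with or without it. Their log2 fold changes were -0.22 (SE 0.23) for *Acta2*, -0.39 (SE 0.18) for *Actg2*, 0.00 (SE 0.07) for *Smtn* and 0.39 (SE 0.53) for *Myocd*. The 6 endothelial markers summed to between 12.4 and 15.4 CPM over the 6 libraries with overlapping groups, with *Cldn5* at 0 reads and *Pecam1* at 14 or fewer, and *Tek* was lower with the block (adjusted p = 0.0341). The part of other cells or of smooth muscle state in the values of *Lif* and its relatives was not tested.

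Levels were compared between the genes per kilobase of transcript in the si-NC libraries. With the exon length of the deposited table, *Stat3* was at 53.8 CPM per kilobase, *Il11* at 53.5 and *Il6st* at 44.1, followed by *Osmr* at 35.9. *Socs3* was at 20.1, *Clcf1* at 17.8, *Lif* at 14.3 and *Lifr* at 12.9 CPM per kilobase. *Il6* at 4.65 and *Il6ra* at 2.19 were lowest. Of the 9 pairs of neighbours in this order, *Osmr* and *Socs3* did not overlap over the 3 libraries, nor did *Lifr* and *Il6*, and the other 7 pairs did. *Il11* had an SD of 30.5 CPM per kilobase over the 3 libraries, the largest of the 10 genes on this scale.

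The place of *Lifr* in this order rests on its length, and some other places change with the length too. The table's length is that of 1 annotated transcript in 99.4% of genes, and for *Lifr* it is 577 bases, while its longest annotated transcript has 9655. With the summed length of all annotated exons, an alternative added after this was seen, *Lifr* was at 0.693 CPM per kilobase and last, below *Il6* and *Il6ra*, each at 2.19. On that length *Il6st* was at 34.5, *Stat3* at 34.1, *Il11* at 27.2 and *Lif* at 13.2 CPM per kilobase. *Clcf1* was at 8.66, there below *Lif* without overlap. *Socs3* at 17.7 and *Osmr* at 16.3 changed places and overlapped.

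**Figure D4:**
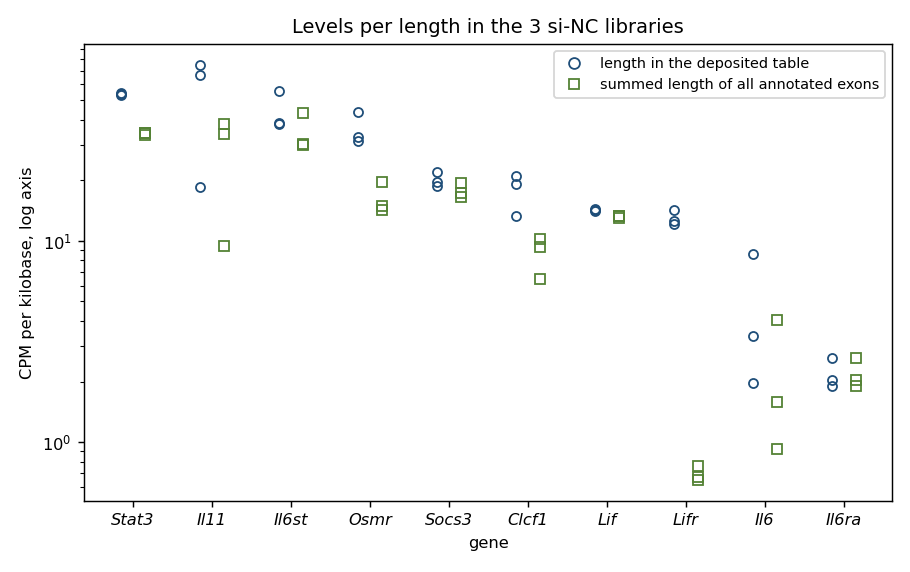
CPM per kilobase (log axis) of the 10 genes in the 3 si-NC libraries, with the length in the deposited table (circles) and with the summed length of all annotated exons (squares). *Lifr* falls from 12.9 to 0.693 CPM per kilobase in the mean when the length is changed, and *Lif* stays near 14.3 and 13.2.

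The rest of the pathway was described from lists by role that hold 52 genes, of which 44 had enough reads to be tested. Past the threshold were 2 of the 44, beside the 7.36% of all genes tested, and both are on the list of 18 known STAT3 targets, 17 of them tested. *Il4ra*, the gene of the interleukin 4 receptor alpha chain, was at 281, 336 and 287 CPM in si-NC libraries and at 428, 452 and 442 CPM in si-Snhg18 libraries. It rose, with a log2 fold change of 0.55 (SE 0.09, adjusted p = 0.0208, edgeR quasi-likelihood test), and the groups did not overlap. *Icam1*, the gene of an adhesion molecule that leukocytes bind, was at 41.1, 41.2 and 36.6 CPM in si-NC libraries and at 28.1, 24.1 and 25.97 CPM in si-Snhg18 libraries. It fell, with a log2 fold change of -0.60 (SE 0.10, adjusted p = 0.0208), without overlap. With 1 library left out, *Il4ra* stayed between 0.50 and 0.63 and *Icam1* between -0.66 and -0.55, and each was past the threshold in 2 of the 6 fits. *Icam1* was not past it without si-NC 1, si-NC 2, si-NC 3 or si-Snhg18 3, and *Il4ra* not without si-NC 1, si-NC 3, si-Snhg18 1 or si-Snhg18 3.

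The median log2 fold change of the 17 tested targets was -0.20, beside 0.01 over all genes, and was -0.03 without si-NC 2 and -0.08 without si-Snhg18 2. *Ccnd1*, the cyclin D1 gene, was at 419, 721 and 345 CPM in si-NC libraries and at 63.7, 292 and 104 CPM in si-Snhg18 libraries. The groups did not overlap and the number 2 library was highest in each. Its log2 fold change was -1.69 (SE 0.59, adjusted p = 0.142), and it passed with the repeat number as a block (-1.90, SE 0.24, adjusted p = 0.00196), in the edgeR likelihood ratio test (adjusted p = 0.0439) and without si-Snhg18 2 (-2.57, adjusted p = 0.00971). With 1 library left out it ranged from -2.57 to -1.32. *Timp1*, an inhibitor of matrix metalloproteinases, had a log2 fold change of -0.17 (SE 0.11, adjusted p = 0.392), and *Vegfa*, an endothelial growth factor gene, one of -0.25 (SE 0.20, adjusted p = 0.494).

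Upstream of the targets no list had a gene past the threshold without the block. Of the 6 other ligands, *Ctf1* alone was tested, at between 1.61 and 3.76 CPM, and *Osm*, *Il27*, *Ebi3* and *Il31* had no read in any library, which allows up to between 0.115 and 0.166 CPM per library (3 reads, counting error only). Of the 3 tested receptor genes *Il11ra1*, the alpha receptor gene for IL11, was the most abundant in CPM, at 29.7, 32.2 and 30.5 CPM in si-NC libraries and at 24.3, 41.6 and 29.6 CPM in si-Snhg18 libraries. Its groups overlapped and its log2 fold change was 0.05 (SE 0.19, adjusted p = 0.901). Among 11 tested kinases and adaptors, 0 passed in edgeR with 3 at an unadjusted p under 0.05, and 2 passed in DESeq2 (*Jak1* and *Mapk3*). Of all 14531 genes tested, 3613 had an unadjusted p under 0.05 in edgeR and 2115 passed in DESeq2, so nothing is read from these counts. *Jak1*, a Janus kinase gene of gp130 complexes, was at 278, 297 and 273 CPM in si-NC libraries and at 339, 364 and 330 CPM in si-Snhg18 libraries. Its log2 fold change was 0.29 (SE 0.07, adjusted p = 0.0636), and it passed with the block (adjusted p = 0.00812) and in DESeq2 (adjusted p = 0.00546). The 5 other STAT genes and the 7 tested inhibitors had 0 genes past the threshold and 0 with an unadjusted p under 0.05 in edgeR, and 0 past the threshold in DESeq2.

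With the repeat number as a block, 10 of the 44 genes passed, 5 higher and 5 lower, beside 27.2% of all genes. Named here after their values were seen, the 8 that joined *Il4ra* and *Icam1* were *Jak1*, *Jak2*, *Mapk3* and *Stat2*, higher, and *Bcl3*, *Ccnd1*, *Nnmt* and *Serpina3n*, lower. The number itself was past its test in 8 of the 44 genes (18.2%, against 13.8% of all genes). The adjusted p of each is for any difference among the numbers. *Bcl3*, an NF-kB cofactor gene, was 3.83-fold higher in number 2 (adjusted p = 0.00492), *Serpina3n*, an acute-phase protease inhibitor gene, 2.18-fold (adjusted p = 0.00288) and *Cebpd*, a transcription factor gene of the acute phase, 1.96-fold (adjusted p = 0.0182). *Ccnd1* passed too and was 2.17-fold higher (adjusted p = 0.0251). *Vegfa* went the other way, 1.40-fold lower in number 2 (adjusted p = 0.0352), as did the kinase gene *Map2k1* (1.37-fold, adjusted p = 0.028) and the phosphatase gene *Ptpn11* (1.26-fold, adjusted p = 0.0427). *Stat2* passed (adjusted p = 0.0228) and was highest in number 1 of each group.

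**Figure D5:**
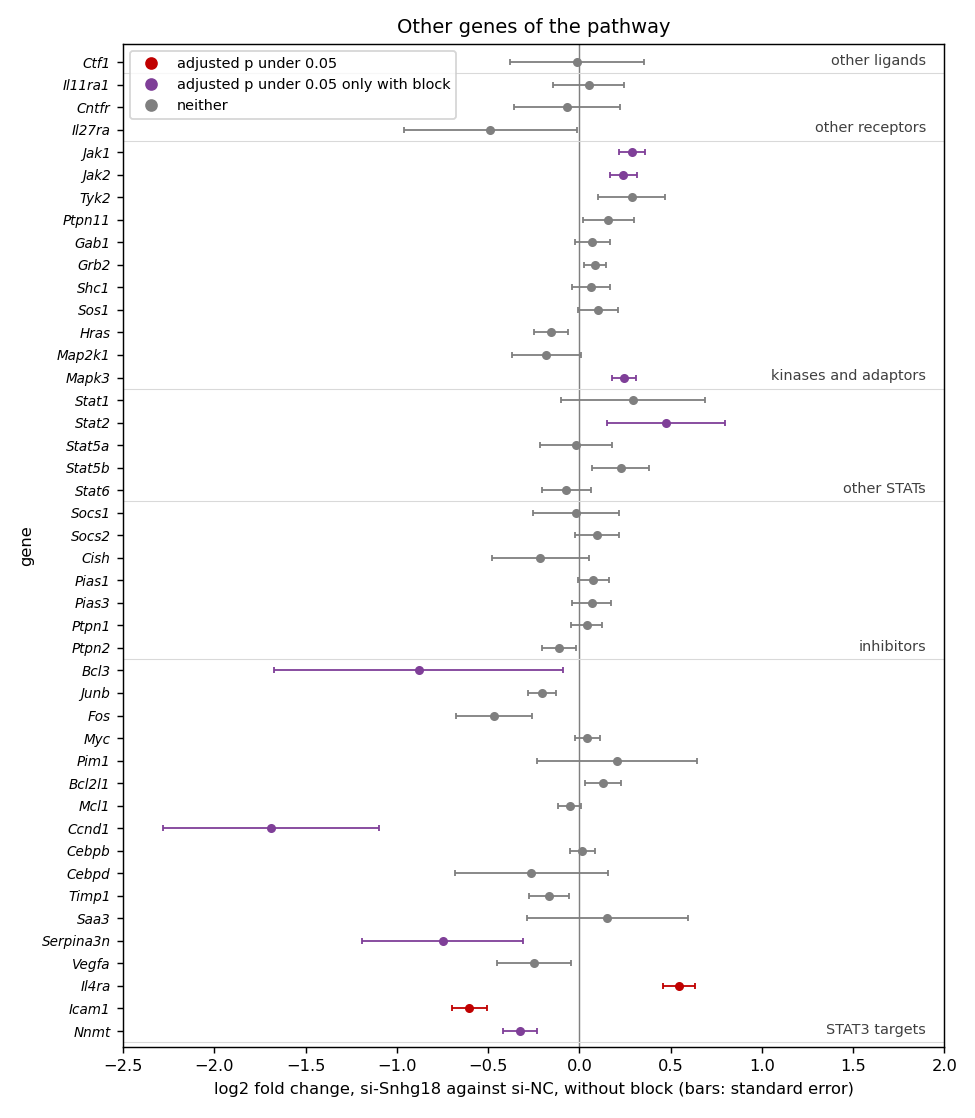
Log2 fold change, si-Snhg18 against si-NC, of the 44 tested genes of the other pathway lists, grouped by role, with bars for the standard error of the fit without block. *Il4ra* at 0.55 and *Icam1* at -0.60 (red) passed without the block, and 8 more (purple) passed with it.

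Around *Lif*, within 200 kb on chromosome 11, lie 17 other annotated genes, of which 8 were tested. In edgeR 0 of the 8 passed and 1, *Rnf215*, had an unadjusted p under 0.05, and 0 passed in DESeq2. Of all 14531 genes tested, 3613 had such a p in edgeR and 2115 passed in DESeq2. *Rnf215*, which encodes a ring finger protein, had a log2 fold change of 0.27 (SE 0.10, adjusted p = 0.170), and *Castor1*, the gene of an arginine sensor, one of -0.31 (SE 0.42, adjusted p = 0.695), past the threshold only without si-Snhg18 2. *Sf3a1*, a splicing factor gene, had -0.09 (SE 0.06, adjusted p = 0.435). *Osm*, the gene of the related ligand oncostatin M, lies 16531 bases from *Lif* and had 0 reads.

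The genes whose log2 CPM over the 6 libraries was most like that of *Lif* were *Adcy7* (Pearson r = 0.999), *Opa1* (0.996), *Adcy3* (0.995), *Tsn* (0.994) and *Prrx1* (0.994). The correlation is over 6 libraries that share both groups and their repeat numbers, so it is a description and carries no p. All 5 were lower in si-Snhg18 libraries without overlap, with log2 fold changes of -0.35, -0.16, -0.55, -0.25 and -0.46 in that order. That direction follows from their choice by likeness to *Lif* and is no separate result. *Adcy7* and *Adcy3* encode adenylyl cyclases and *Prrx1* a mesenchymal homeobox factor. None reached the fold change of *Lif*.

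The libraries held between 18097718 and 25988746 reads in genes. *Snhg18* was at 23.5, 22.4 and 22.2 CPM in si-NC libraries and at 10.6, 11.2 and 9.97 CPM in si-Snhg18 libraries, so the labels and the targeted transcript matched in all 6. Its log2 fold change was -1.10 (SE 0.10, adjusted p = 0.00727, edgeR). The exact permutation test over the 6 values gave p = 0.1 (two-sided), the smallest that 3 against 3 allows. *Snhg18* was thus reduced to 46.7% of its control level in the same libraries in which *Lif* was at 54.4%.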

How the data were processed

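The 6 libraries (3 si-NC, 3 si-Snhg18) were grouped by their labels. Libraries were made with the TruSeq Stranded mRNA kit, and the authors deposited raw read counts per gene. The submitters' processing notes name HISAT2 and mm10, and the deposited table gives positions on GRCm38.p6. The counting program and its strand setting are not given in the sources used here, so reads of overlapping antisense genes cannot be assigned. The counts were tested in R 4.3.3 with edgeR 4.0.16 (TMM, filterByExpr with a minimum count of 10, quasi-likelihood test, Benjamini-Hochberg adjustment over 14531 genes, threshold 0.05), and DESeq2 1.42.0 and limma 3.58.1 (voom) were alternatives, with other filters, scalings and each library left out. The steps were tested on simulated data. There the siRNA contrast was simulated without any difference between repeat numbers, unlike these data, so the check does not cover such a difference. Total counts ranged from 18097718 to 25988746.

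The members and lists were chosen with earlier results of these data known. Some genes of the pathway are not reported here and are left out of the lists. Named genes were the members, *Snhg18*, genes of the other lists past the threshold and up to 3 more per list by mean CPM, tested genes within 200 kb of *Lif*, and the 5 genes with the highest Pearson r with *Lif*. The repeat-number test and the summed exon length (GENCODE M21) were added after the data were seen. The labels do not say that libraries are separate cultures, so p-values measure the spread between these samples, which may be technical. No 2 libraries of a group were duplicates (chi-square per degree of freedom 6.25 to 112).

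The pairing by repeat number rests on the labels' numbers and on the data: deviations from the group means correlated at r = 0.41, 0.742 and 0.359 for numbers 1, 2 and 3, all above 0.1. Library si-NC 3 correlated more with si-Snhg18 1 (r = 0.497) than with si-Snhg18 3, so the data do not set numbers 1 and 3 apart. Values with the block stand beside those without it where it changed a call of a member, a marker or a pathway count.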

Additional observations from a re-analysis of the deposited data

How the results depend on the processing

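Without alternatives 1069 of 14531 genes passed. The count was 2115 in DESeq2, 3954 with the replicate block and between 0 and 3282 with 1 library left out, with 0 without si-NC 1, without si-NC 3 or without si-Snhg18 3. Those 3 fits had between 2464 and 2731 genes at an unadjusted p under 0.05. Of the 10 members 1 passed, 2 with the block, and between 0 and 3 with 1 library left out. The 3 were *Lif*, *Il6* and *Lifr*, without si-Snhg18 2, the fit in which 3282 of all genes passed. Of the pathway genes 2 passed, 5 in DESeq2, 10 with the block and between 0 and 4 with 1 library left out. *Snhg18* stayed between -1.14 and -1.06 with 1 library left out, and was not past the threshold without si-NC 1, si-NC 3 or si-Snhg18 3. For the repeat number, 2003 genes passed, 3766 in the edgeR likelihood ratio test, 3978 without the filter on low counts and between 65 and 5601 with 1 library left out, and of the members between 1 and 8. Neighbours in the order of levels that did not overlap numbered 2 of 9 pairs, 4 with the summed exon length and between 3 and 7 with 1 si-NC library left out. The cause of these differences was not tested.

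Leaving out 1 library turned the sign of the log2 fold change of *Il6* (-2.98 to 0.29), *Il11* (-0.78 to 0.11), *Clcf1* (-0.32 to 0.076), *Il6ra* (-0.32 to 0.18), *Stat3* (-0.020 to 0.031) and *Socs3* (-0.15 to 0.044), and among other genes of *Ptpn1* (-0.020 to 0.11), *Ctf1* (-0.35 to 0.25), *Il11ra1* (-0.20 to 0.21), *Cntfr* (-0.27 to 0.15), *Stat6* (-0.22 to 0.016) and *Tbc1d10a* (-0.055 to 0.13). *Stat3* was also at -0.0057 without the filter. *Il6* was at -1.48 in limma-voom. Beyond the calls given above, the block brought *Tsn* past the threshold (adjusted p = 0.0204, edgeR) among the genes most like *Lif*. *Tsn* was chosen for its likeness to *Lif* over these same libraries, so this call is no independent test of it. Counts of 3 reads, or 0.115 to 0.166 CPM, limit what can be seen of the unread ligand genes.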
